A study of Mus musculus with 4 samples.

Results

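The interferon-stimulated genes studied here are 44 genes of the interferon pathway, taken by symbol from a table of 23997 genes: the type I interferon receptor chains, the transcription factors that act below them, sensors of viral RNA, and genes switched on by interferon. All 44 symbols were present, each with a value in all 4 columns. RNA had been sequenced from cultured lung endothelial cells of C57BL/6 mice grown with 10% serum, and every sample had received an siRNA for 48 h: either a control siRNA or one against the glucocorticoid receptor (GR, gene Nr3c1). Each siRNA was used alone or with dexamethasone (DEX), a synthetic glucocorticoid that activates GR, at 100 nM for 18 h. Crossing siRNA with DEX gives the 4 conditions. None of them is an untransfected culture.

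Type I interferons bind a receptor of the chains IFNAR1 and IFNAR2, and the kinases JAK1 and TYK2 then activate transcription factors. STAT2 and IRF9 are parts of the complex ISGF3, which binds the interferon-stimulated response element (ISRE) in the promoters of target genes, whose products block viral entry, degrade viral RNA, tag proteins or raise the alarm further. Endothelial cells carry this machinery and keep part of it running without infection. Activated GR is known to dampen inflammatory gene expression, in part through factors that interferon signalling also uses.

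The promoters of 6 members are shown because they span what the data showed: Ifit1 and Rsad2 were the lowest with GR siRNA relative to control siRNA, Stat2 and Ifitm3 the highest among members of at least 5 FPKM in the comparison without DEX, and Irf9 and Ifnar1 stand for the signalling parts above them. Each runs 5′ to 3′ from 250 bases before to 50 after a transcription start in RefSeq (build GRCm38.p6, the assembly also called mm10), in lower case, with matches to the ISRE core in capitals. The core searched was GAAA, any 2 bases and GAAA again, so a match on the other strand reads TTTC, 2 bases and TTTC.
Ifit1, chr19:34640639-34640938, plus strand: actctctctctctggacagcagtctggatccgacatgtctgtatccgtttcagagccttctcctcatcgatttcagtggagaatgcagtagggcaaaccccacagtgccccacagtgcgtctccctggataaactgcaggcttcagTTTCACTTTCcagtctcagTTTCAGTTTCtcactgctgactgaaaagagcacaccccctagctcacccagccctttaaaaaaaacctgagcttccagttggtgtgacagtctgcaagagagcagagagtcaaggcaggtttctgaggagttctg
Rsad2, chr12:26456403-26456702, minus strand: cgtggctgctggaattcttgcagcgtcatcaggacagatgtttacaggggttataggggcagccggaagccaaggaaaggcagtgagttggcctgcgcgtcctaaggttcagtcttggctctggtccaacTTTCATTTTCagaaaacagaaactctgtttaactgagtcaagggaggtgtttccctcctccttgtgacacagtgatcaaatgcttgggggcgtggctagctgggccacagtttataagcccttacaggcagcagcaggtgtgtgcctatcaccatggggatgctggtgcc
Stat2, chr10:128270248-128270547, plus strand: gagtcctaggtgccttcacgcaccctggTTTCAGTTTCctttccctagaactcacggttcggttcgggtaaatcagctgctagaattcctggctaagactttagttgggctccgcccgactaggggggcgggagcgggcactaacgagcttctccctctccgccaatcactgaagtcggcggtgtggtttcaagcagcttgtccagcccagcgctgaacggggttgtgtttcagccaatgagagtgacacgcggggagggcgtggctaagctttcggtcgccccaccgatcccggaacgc
Ifitm3, chr7:141010695-141010994, minus strand: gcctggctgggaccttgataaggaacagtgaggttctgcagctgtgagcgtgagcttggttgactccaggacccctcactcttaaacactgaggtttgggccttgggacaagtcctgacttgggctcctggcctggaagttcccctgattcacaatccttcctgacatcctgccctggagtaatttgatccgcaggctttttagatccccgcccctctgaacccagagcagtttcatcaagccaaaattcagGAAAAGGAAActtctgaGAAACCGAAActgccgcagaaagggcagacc
Irf9, chr14:55603735-55604034, plus strand: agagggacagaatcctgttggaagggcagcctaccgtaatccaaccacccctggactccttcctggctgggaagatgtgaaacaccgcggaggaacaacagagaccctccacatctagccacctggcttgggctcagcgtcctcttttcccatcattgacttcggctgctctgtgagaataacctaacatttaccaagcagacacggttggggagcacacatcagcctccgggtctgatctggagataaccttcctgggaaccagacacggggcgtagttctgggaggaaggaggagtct
Ifnar1, chr16:91484965-91485264, plus strand: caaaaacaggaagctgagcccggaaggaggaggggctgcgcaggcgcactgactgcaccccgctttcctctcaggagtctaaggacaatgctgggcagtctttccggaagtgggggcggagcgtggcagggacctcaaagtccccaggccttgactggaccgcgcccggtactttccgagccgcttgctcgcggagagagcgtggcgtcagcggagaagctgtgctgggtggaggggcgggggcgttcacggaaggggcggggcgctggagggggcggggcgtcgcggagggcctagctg

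The Ifit1 promoter holds 2 matches, with first bases at −104 and −85 from the start site, and that of Rsad2 holds 1, at −120. Stat2 has 1 match at −222, and Ifitm3 has 2 just inside the transcript, at bases 3 and 20. The windows of Irf9, the first of 2 listed starts, and of Ifnar1 hold no match to these letters. Of the 44 members, 34 have promoters in the RefSeq table (Dhx58, Zbp1, Oas2, Usp18, Mx1, Mx2, Iigp1, Parp9, Parp14 and Rtp4 do not), and 18 of the 34 (52.9%) hold the core in at least 1 window. Of all 32851 promoters of the same length, 3.44% hold it, and counted by gene 3.99% of 27025. Isg15, which encodes a ubiquitin-like protein, holds 3. The GAS element, TTCNNNGAA on both strands, known from interferon gamma signalling, occurs in 12 of the 34 (35.3%). It occurs in 8.30% of all promoters and, counted by gene, in 9.55%. A GR response element, searched as GNACA, any 3 bases and TGTNC, occurs in 0 of the 34. It occurs in 0.475% of all promoters and, counted by gene, in 0.537%. The 0 says only that these letters are not in these windows.

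The submitters describe triplicates, but the table has 1 column per condition, so no value here has an SD, n or p-value, and no difference could be checked against replicates. In bulk RNA, fewer cells of a type and less RNA per cell cannot be told apart. Differences are on the log2(FPKM + 1) scale, which understates those of low genes, and a gene entered a comparison with at least 1 FPKM (fragments per length of transcript and per depth of the library, so levels of different genes can be compared) in 1 of its 2 columns. The absolute depth is unknown; the value of a single fragment in low genes placed the relative depth between 0.671 (control siRNA) and 1 (GR siRNA). Nr3c1 was 14.4 and 14.3 FPKM in the control siRNA columns and 5.45 and 5.32 FPKM in the GR siRNA columns, so its mRNA was reduced and not absent. All 12 endothelial markers reached 1 FPKM in every column, with Vwf the lowest at 2.90 to 4.10 FPKM. Their sum was 2987 and 2987 FPKM with control siRNA and 2734 and 2659 FPKM with GR siRNA, without and with DEX. With GR siRNA 10 of the 12 were lower and 2 higher without DEX, and 7 were lower and 5 higher with DEX. Cldn5 had the largest differences, −0.42 and −0.66. Of 15 leukocyte markers, 4 (Ptprc, Cd3e, Nkg7 and Tyrobp) were listed at 0 throughout, and the list sum was 215 to 233 FPKM with control siRNA and 266 to 297 FPKM with GR siRNA, nearly all of it from Cd68 and Bst1. The sum of 10 fibroblast and mural markers was 6.40 to 6.61 FPKM with control siRNA and 11.4 to 12.3 FPKM with GR siRNA, and that of 10 epithelial markers was 14.3 to 15.1 against 17.6 to 18.0 FPKM. The part of these markers in the differences described here was not tested.

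Most members were well expressed in these siRNA-treated cells, with no interferon among the stated treatments. Their level in cells without siRNA is not known from these columns. The mean over the 4 columns was at least 100 FPKM for 3 members, between 10 and 100 for 29 and between 1 and 10 for 11, and Mx1 alone stayed under 1 FPKM in every column. The median of the members' means was 19.2 FPKM, against 14.4 FPKM for the 11445 genes that reached 1 FPKM anywhere. The genes of the interferons themselves were nearly silent: of 21 ligand genes, 17 were listed at 0 in all columns, 3 (Ifnb1, Ifna13 and Ifnz) stayed under 0.2 FPKM, and only Ifne, the epithelial-type interferon epsilon, was measurable, at 4.81 and 4.34 FPKM in the control siRNA columns and 5.54 and 5.99 FPKM in the GR siRNA columns, each pair without and with DEX. The highest members were the small membrane proteins that block virus entry or release. Ifitm3 stood at 723 FPKM with control siRNA, 689.8 with control siRNA and DEX, 826 with GR siRNA and 914 with GR siRNA and DEX. Levels lay close together across conditions for most members: in 28 of 44 the highest and lowest columns differed by under 0.32 in log2 FPKM. In 6 (Oas2, Ifit1, Rsad2, Iigp1, Cmpk2 and Gbp2) the highest was at least 1.5 times the lowest. This range was not computed over all genes, so these counts do not set the members apart from other genes.

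**Figure D1:**
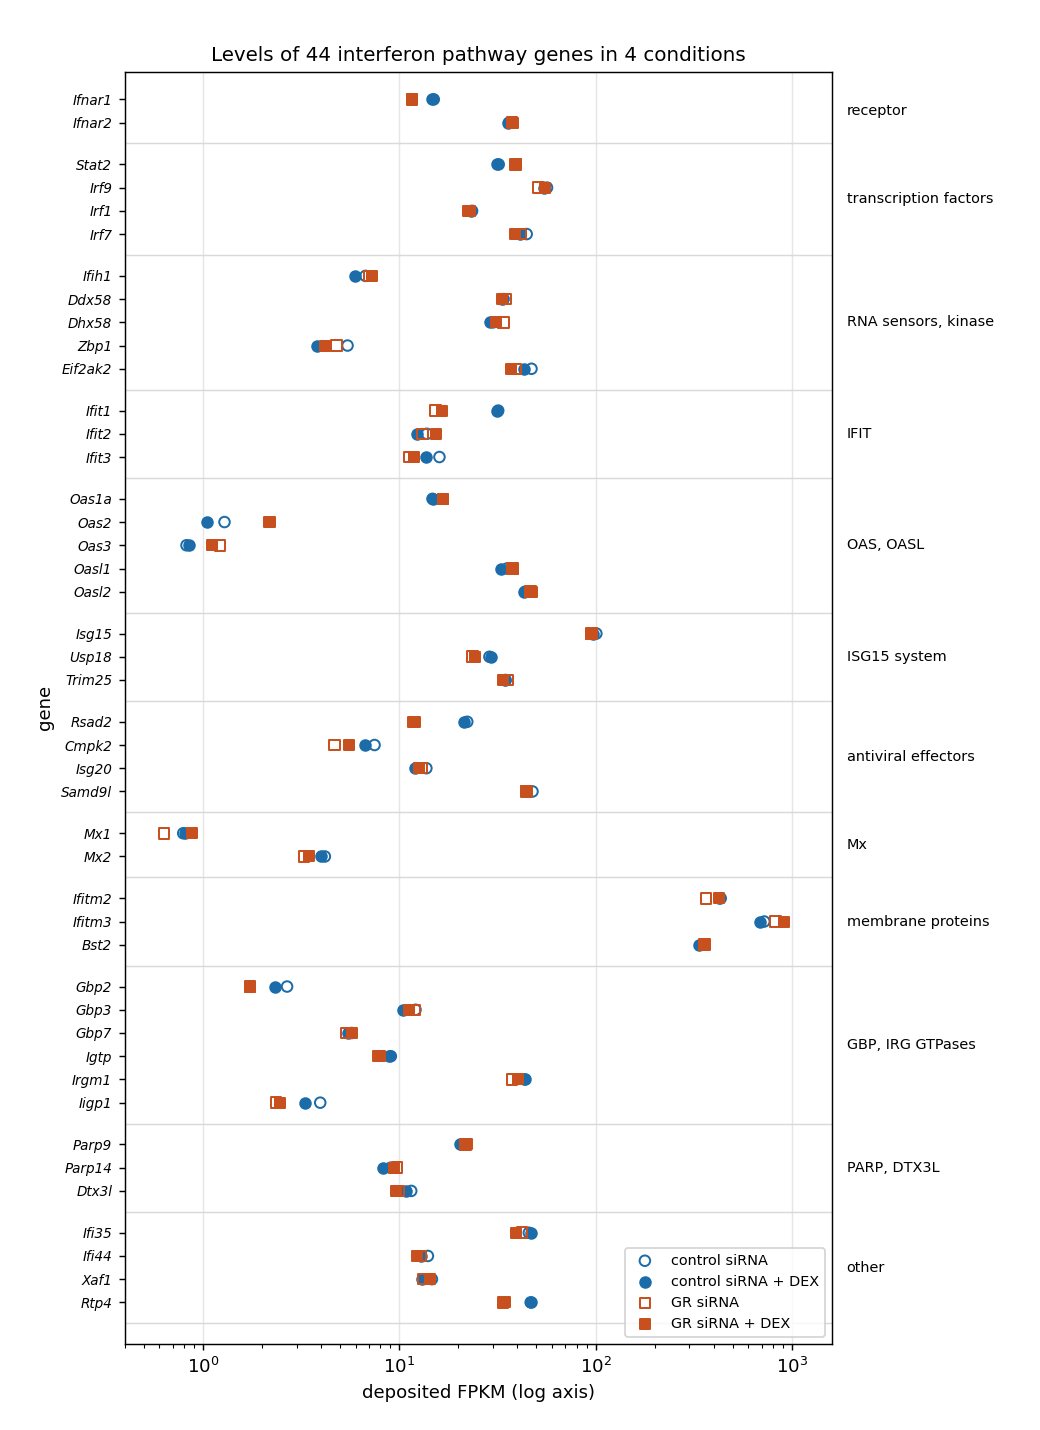
Deposited FPKM (log axis) of the 44 members, grouped by role, with a point for every condition. Control siRNA is drawn as circles and GR siRNA as squares, filled where DEX was added. Points of a gene mostly overlap; Ifit1 and Rsad2 show squares well left of circles (15.3 and 16.4 against 31.9 and 31.3 FPKM for Ifit1), and Oas2 shows them to the right.

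With GR siRNA, few members differed much from control siRNA. The 2 that were at least 1.5-fold lower in both DEX states were Ifit1 and Rsad2, too few to give the set a direction. Without DEX, 2 of 43 members measured were at least 1.5-fold lower and 0 were at least 1.5-fold higher, beside 2.54% lower and 2.36% higher of 11325 genes. With DEX in both arms, 2 were lower and 1 higher, beside 2.62% and 2.36% of 11344 genes. As shares of the members, the lower counts were 4.65% in each comparison, and the higher one with DEX was 2.33%. The count without DEX rests on the pseudocount: with 0.1 in place of 1, 5 members (11.6%) were 1.5-fold lower, Cmpk2, Gbp2 and Iigp1 joining Ifit1 and Rsad2, beside 3.31% of genes. The median member difference was −0.09 without DEX and 0.00 with DEX, against −0.01 in each case over all genes, and rescaling the columns to a common upper quartile moved the members' medians to −0.03 and 0.03. By direction alone, 28 of 43 were lower without DEX and 21 of 43 with DEX, beside 52.8% and 51.8% of genes. Past a smaller cutoff, a log2 difference of 0.32 in size, 8 of 43 members were lower and 1 of 43 higher without DEX. Over all genes these were 1003 (8.86%) and 872 (7.7%) of 11325, so the share that was lower was larger among members than among all genes. With DEX, 3 of 43 were lower and 2 of 43 higher, beside 986 (8.69%) and 883 (7.78%) of 11344 genes. Oas3 passed the filter without DEX only through the GR siRNA column, where it is higher, and the same holds with DEX.

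The receptor chains went different ways. Ifnar1, the chain that recruits TYK2, was 14.99 FPKM with control siRNA, 14.6 with control siRNA and DEX, 11.6 with GR siRNA and 11.6 with GR siRNA and DEX. Both GR siRNA columns were below both control columns, with log2 differences of −0.34 without DEX and −0.31 with DEX. Ifnar2, the chain that binds interferon most tightly, was 36.3, 35.6, 37.6 and 38.2 FPKM in the same order, so its groups did not overlap but lay within a narrow range.

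Of the transcription factors, Stat2 was higher with GR siRNA, and the others differed little. Stat2, a subunit of ISGF3, was 32.1 and 31.6 FPKM with control siRNA and 39.1 and 39.5 FPKM with GR siRNA, without and with DEX in each pair (differences 0.28 and 0.31). Its partner Irf9 was 56.6 and 54.4 against 51.1 and 55.2 FPKM, so its groups overlapped. Irf1, the factor most tied to interferon gamma, lay between 22.4 and 23.5 FPKM in all columns. Irf7, which amplifies interferon production, was 44.6 and 41.1 against 41.8 and 38.8 FPKM, with overlapping groups.

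Sensors of foreign nucleic acid differed in direction with GR siRNA, from −0.27 to 0.17 without DEX and from −0.20 to 0.24 with DEX. Ddx58, which encodes the RNA sensor RIG-I, lay between 33.4 and 34.9 FPKM with overlapping groups. Ifih1, encoding the sensor MDA5, was 6.73 and 5.98 FPKM with control siRNA and 7.05 and 7.25 FPKM with GR siRNA. Dhx58, encoding their regulator LGP2, was 30.1 and 29.1 against 33.9 and 31.1 FPKM, so for both helicases the GR siRNA columns were the higher ones. Eif2ak2, encoding the kinase PKR that halts translation, went the other way at 47.2 and 43.0 against 39.0 and 37.2 FPKM (differences −0.27 and −0.20). Zbp1, a sensor of left-handed nucleic acid that can trigger cell death, was 5.45 and 3.82 against 4.80 and 4.19 FPKM, with the groups overlapping.

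The lowest difference in the list belonged to Ifit1, whose product binds viral RNA with incompletely methylated caps. Ifit1 was 31.9 FPKM with control siRNA, 31.3 with control siRNA and DEX, 15.3 with GR siRNA and 16.4 with GR siRNA and DEX. Its log2 differences were −1.01 without DEX and −0.89 with DEX, and the pairs of columns were far apart, while the columns within each pair were close. Of its 31-mers, 10.8% occur in transcripts of another gene, mostly Ifit1bl2. Ifit3, which forms complexes with IFIT1, was 16.02 and 13.7 FPKM with control siRNA and 11.3 and 11.9 FPKM with GR siRNA. With 61.8% of its 31-mers shared with Ifit3b, reads of those copies may be divided between them in ways the table does not show. Ifit2, another RNA-binding member, was 13.8 and 12.3 against 13.1 and 15.4 FPKM and its groups overlapped.

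The other member past 1.5-fold lower in both DEX states was Rsad2. It encodes viperin, an enzyme that makes a chain-terminating nucleotide, and it was 22.2 FPKM with control siRNA, 21.4 with control siRNA and DEX, 11.8 with GR siRNA and 11.98 with GR siRNA and DEX. The differences were −0.85 without and −0.78 with DEX, on a transcript that shares 0.739% of its 31-mers. Cmpk2, a nucleotide kinase encoded beside Rsad2, was 7.48 and 6.71 against 4.68 and 5.56 FPKM, with differences of −0.58, just under the 1.5-fold line, and −0.23. The RNA exonuclease gene Isg20 lay between 12.1 and 13.7 FPKM and Samd9l, which encodes a restriction factor for poxviruses, between 44.1 and 47.7 FPKM, both with overlapping groups.

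The 5 OAS genes among the members were higher with GR siRNA in both DEX states, beside 36.9% of 11224 genes higher in both. Taken singly, 47.2% of all genes were higher without DEX and 48.2% with DEX. Oas3 is counted here although it passed the filter only through the GR siRNA columns, so its direction was fixed by the filter. OAS genes outside the 44 did not share the direction of these members: of those measured, Oas1b had differences of −0.02 and −0.24, and Oas1c −0.09 and −0.11. The first of these values for Oas1b turned above 0 when the columns were rescaled. Their products bind double-stranded RNA, and most of them make the oligoadenylates that switch on RNase L. Oas2 was 1.29 and 1.05 FPKM with control siRNA and 2.20 and 2.17 FPKM with GR siRNA, with differences of 0.48 and 0.63; it is low, and the plus 1 understates its ratio. Oas3 was 0.82 and 0.85 against 1.22 and 1.11 FPKM. Oasl1 was 35.4 and 33.2 against 37.8 and 37.8 FPKM, Oasl2 was 43.7 and 43.1 against 46.7 and 47.6 FPKM, and Oas1a was 14.8 and 14.9 against 16.7 and 16.6 FPKM, the last with 68.8% of its 31-mers shared, mostly with Oas1g. In each of these the GR siRNA columns lay above the control columns, by little for all except Oas2 and Oas3.

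**Figure D2:**
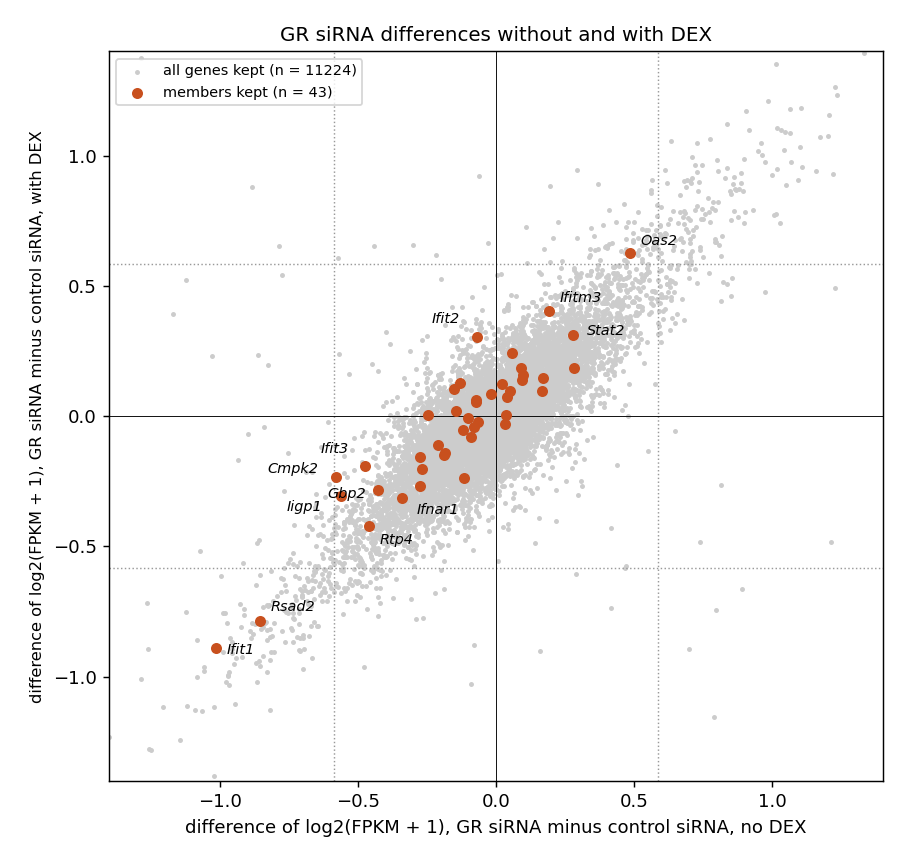
Difference of log2(FPKM + 1) between GR siRNA and control siRNA without DEX (horizontal) and with DEX (vertical), for 43 members (orange) and 11224 genes kept in both (grey); dotted lines mark 1.5-fold, and 104 grey points lie outside the axes. Ifit1 (−1.01, −0.89) and Rsad2 (−0.85, −0.78) lie at the lower left and Oas2 (0.48, 0.63) at the upper right, while most members sit near the centre.

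The ISG15 system, which attaches the ubiquitin-like ISG15 to proteins, had Usp18 and Isg15 lower in both GR siRNA columns than in both control columns. Usp18, the protease that removes ISG15 and restrains the receptor, was 28.8 and 29.4 FPKM with control siRNA against 23.6 and 24.3 FPKM with GR siRNA (differences −0.28 and −0.27). Isg15 itself was 101 and 96.99 against 95.3 and 94.3 FPKM (−0.08 and −0.04), and Trim25, a ubiquitin ligase that activates RIG-I, lay between 33.6 and 35.6 FPKM with overlapping groups.

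Of the large GTPases, which attack membranes around intracellular pathogens, all 6 members had lower values with GR siRNA without DEX and 4 did with DEX, beside 52.8% and 51.8% of all genes. Gbp3, at −0.02 without DEX, turned above 0 when the columns were rescaled. Of 6 further genes of these families measured, 4 were lower without DEX and 2 with DEX, and Gbp4 (0.18 and 0.35) and Gbp9 (0.15 and 0.09) were higher in both. Iigp1 was 3.96 and 3.31 against 2.36 and 2.48 FPKM (differences −0.56 and −0.31), and Gbp2 was 2.68 and 2.34 against 1.74 and 1.74 FPKM (−0.43 and −0.29). Irgm1 was 43.5 and 43.5 against 37.5 and 40.2 FPKM, and Igtp 9.06 and 8.86 against 7.85 and 7.94 FPKM. Gbp3, at 10.5 to 12.1 FPKM, and Gbp7, at 5.39 to 5.75 FPKM, had overlapping groups. Mx2, of the dynamin-like GTPase family but annotated in GENCODE M21 as a polymorphic pseudogene, was 4.18 and 4.00 against 3.28 and 3.48 FPKM. Mx1 was 0.79 and 0.81 against 0.63 and 0.88 FPKM; C57BL/6 mice are known to carry a defective Mx1 allele.

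The membrane proteins differed in direction. Ifitm2 was 434 and 425 FPKM with control siRNA and 365 and 427 FPKM with GR siRNA, so the groups overlapped and the GR siRNA column without DEX was the low one. Ifitm3 was higher in both GR siRNA columns, with differences of 0.19 and 0.41. Both share sequence with other genes (55.5% and 20.5% of 31-mers), so their FPKM are less certain. Bst2, encoding the tetherin that holds budding virus at the cell surface, was 349.5 and 337 against 359 and 355 FPKM.

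Parp9 and Dtx3l, which form an ADP-ribosyl transferase and ubiquitin ligase complex, went apart: Parp9 was 21.4 and 20.4 against 21.8 and 22.3 FPKM, while Dtx3l was 11.5 and 10.8 against 9.98 and 9.64 FPKM. Parp14, an ADP-ribosyl transferase, was 9.05 and 8.29 against 9.76 and 9.38 FPKM. Of the remaining members, Rtp4, an inhibitor of viral RNA replication, was 46.7 and 46.8 FPKM with control siRNA against 33.7 and 34.7 FPKM with GR siRNA, with differences of −0.46 and −0.42 and 12.5% of its 31-mers shared. Ifi35, a partner of NMI, was 45.7 and 46.7 against 42.1 and 39.5 FPKM. Ifi44, at 12.4 to 14.0 FPKM, and Xaf1, a pro-apoptotic factor at 13.1 to 14.7 FPKM, varied little, and the groups of Xaf1 overlapped.

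The GR siRNA differences without and with DEX come from separate columns. Of 43 members, 20 were lower in both, 14 higher in both and 9 on opposite sides (46.5%, 32.6% and 20.9%), beside 41.7%, 36.9% and 21.5% of 11224 genes. Past a log2 difference of 0.32 in both, 3 members were lower (Ifit1, Rsad2 and Rtp4) and 1 was higher (Oas2), beside 5.81% and 5.0% of genes. The shares among members and among all genes were near each other.

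DEX in control siRNA cells gave a different picture: no member differed much, yet nearly all were slightly lower. None of 42 members measured was 1.5-fold higher or lower, beside 0.686% and 0.392% of 11227 genes, and past 0.32 in log2 only Zbp1 was lower, with 0 higher (background 0.882% and 1.02%). In direction, 37 of the 42 (88.1%) were lower with DEX, beside 52.6% of all genes. The median member difference was −0.06 and its quartiles ran from −0.14 to −0.03, against a median of −0.01 and quartiles of −0.055 and 0.045 for all genes. In GR siRNA cells, 19 of 43 members (44.2%) were lower with DEX, beside 51.9% of all genes, with a median of 0.02 and no member past 0.32 (background 0.973% lower and 1.26% higher; at 1.5-fold 0.645% and 0.531%). All members were read from the same pair of columns, so the shared direction rests on 1 pair of columns and not on 42 separate observations.

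**Figure D3:**
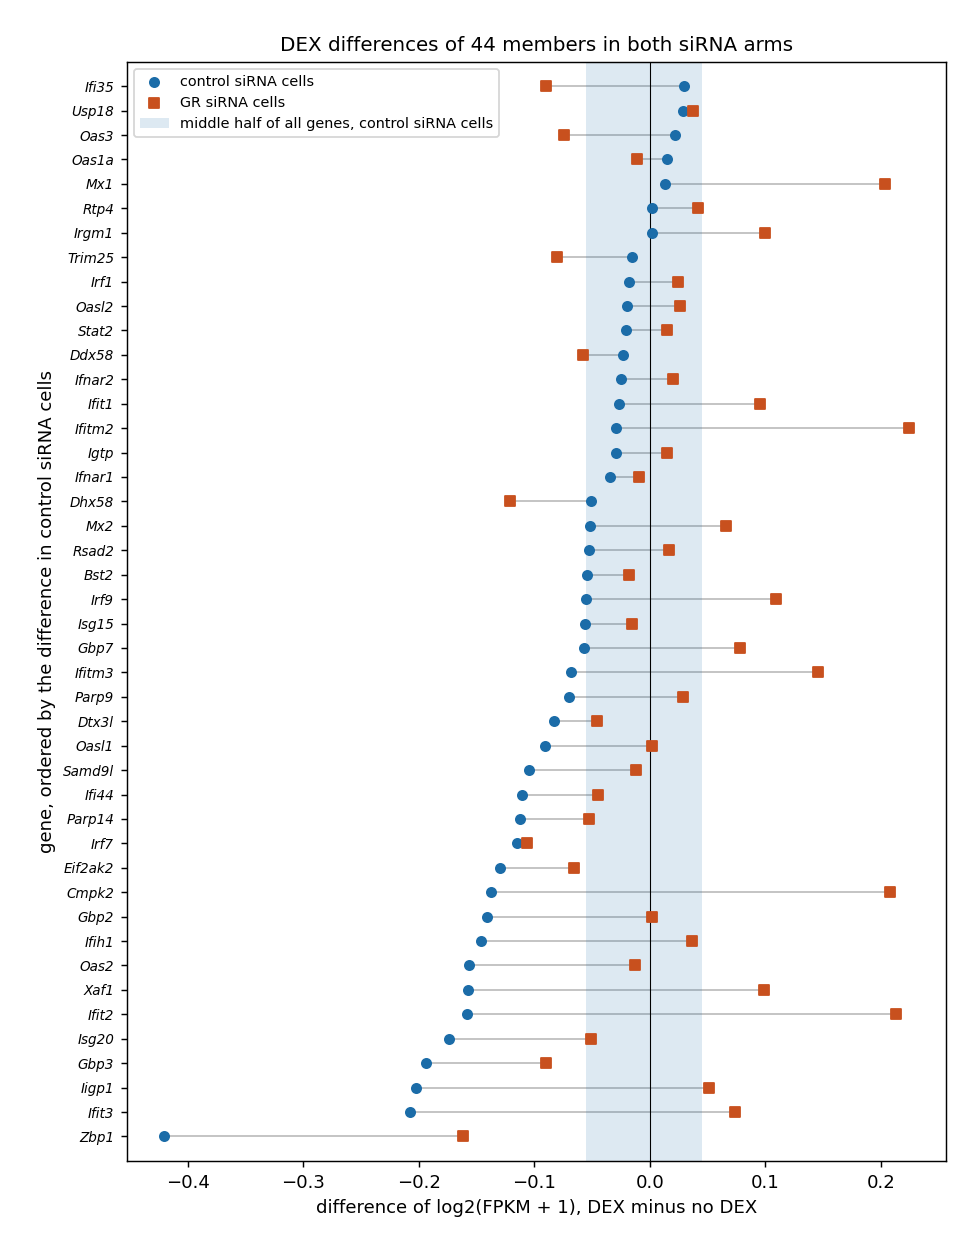
Difference of log2(FPKM + 1) between DEX and no DEX for each of the 44 members, as circles in control siRNA cells and squares in GR siRNA cells, ordered by the circle; the band spans the quartiles of all genes in control siRNA cells. Mx1 and Oas3 are drawn but were under 1 FPKM in both control siRNA columns and not counted there. Circles lie left of 0 for nearly all members, with Zbp1 at −0.42, while squares lie on both sides and reach 0.22 for Ifitm2.

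Zbp1 had the largest DEX difference in control siRNA cells, −0.42, with 5.45 FPKM without and 3.82 FPKM with DEX. In GR siRNA cells its difference was −0.16. Ifit3 followed with −0.21, Iigp1 with −0.20, Gbp3 with −0.19, Isg20 with −0.17 and Ifit2 with −0.16. In GR siRNA cells Ifit3 was 0.07, Iigp1 0.05, Gbp3 −0.09, Isg20 −0.05 and Ifit2 0.21. The 5 members above 0 in control siRNA cells were Ifi35, Usp18, Oas1a, Rtp4 and Irgm1, with differences from 0.00 to 0.03. By role, both receptor chains, all 4 transcription factors, all 5 sensors, all 3 IFIT genes and all 3 membrane proteins were lower with DEX in control siRNA cells. So were Parp9, Parp14, Dtx3l, Rsad2, Cmpk2, Isg20, Samd9l and Mx2. In the other roles, 5 of 6 large GTPases, 3 of 4 OAS genes measured, 2 of 3 ISG15 system genes and 2 of 4 remaining members were lower. Of all genes, 52.6% were lower. The largest differences in GR siRNA cells were positive, at 0.22 for Ifitm2, 0.21 for Ifit2 and 0.21 for Cmpk2.

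Across the arms, 16 of 42 members were lower with DEX in both, 3 higher in both and 23 on opposite sides (38.1%, 7.14% and 54.8%), beside 27.8%, 23.2% and 49.0% of 11092 genes. None was past 0.32 in both, beside 0.198% of genes lower and 0.18% higher. The DEX difference in GR siRNA cells exceeded that in control siRNA cells in 37 of 43 members (86.0%), beside 50.6% of 11445 genes, with a median excess of 0.07. The excess contains the control siRNA differences with their sign reversed, so this count is not separate from the lower values with DEX in those cells. This difference was not tested, since each condition has 1 column.

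Members that lie next to each other in the genome did not all differ alike. Ifit2, Ifit3 and Ifit1 lie in this order on the plus strand of chromosome 19, at 34550694 to 34576419, 34583531 to 34588731 and 34640871 to 34650009 (mm10, GENCODE M21), and their differences without DEX were −0.07, −0.47 and −1.01. Rsad2 (chromosome 12, 26442746 to 26456452, minus strand) and Cmpk2 (26469204 to 26479837, plus strand) point away from each other with 12751 bases between them, and both were lower. Ifnar2 (chromosome 16, 91372783 to 91405589) and Ifnar1 (91485238 to 91507441) share a strand and differed as described. Oas2 (chromosome 5, 120730333 to 120749853) and Oas3 (120753098 to 120777661), 3244 bases apart, were both higher. Parp9 (chromosome 16, 35938470 to 35972605) and Dtx3l (35926511 to 35939151) overlap at their starts on opposite strands and share 8.54% and 7.51% of their 31-mers with each other.

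**Figure D4:**
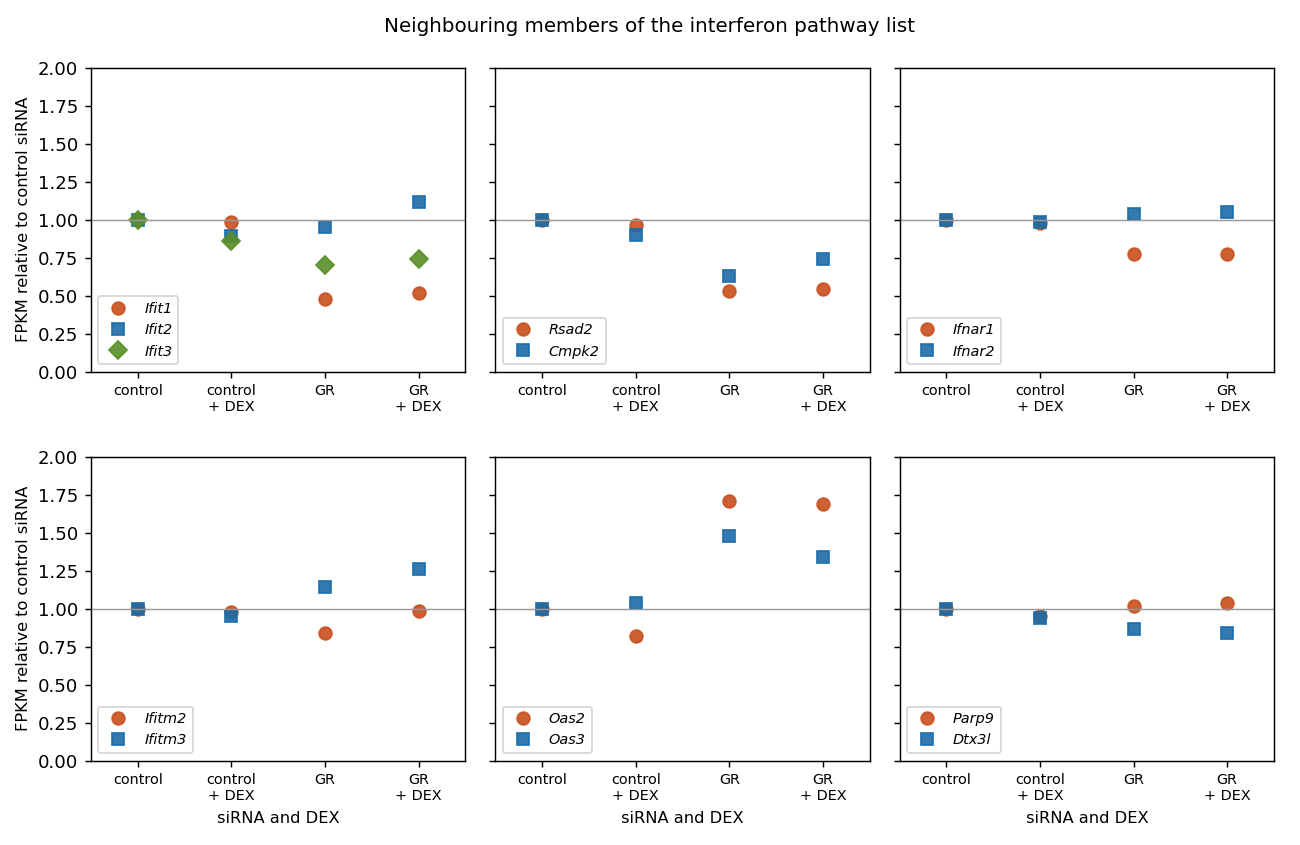
FPKM in each condition divided by the control siRNA column, for 6 groups of neighbouring members. Within the Ifit locus, Ifit1 and Ifit3 lie below 1 in both GR siRNA columns while Ifit2 stays near 1; Rsad2 and Cmpk2 are both below 1, Oas2 and Oas3 both above, and Ifnar1 and Dtx3l are below 1 where Ifnar2 and Parp9 are not.

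The rest of the pathway was read from 134 further genes listed by role, of which 133 were in the table and 86 or 87 were measured in each comparison. Without DEX, 2 were at least 1.5-fold lower with GR siRNA (Ifi27l2a and Cxcl10) and 0 higher, of 87 measured, beside 2.54% and 2.36% of all genes. With DEX, 1 was lower (Ifi27l2a) and 4 were higher (Ccl5, Apol9a, Ifi203 and Ifi204), of 86 measured, beside 2.62% and 2.36%. Ifi27l2a, an interferon-induced mitochondrial protein gene, was 73.6 and 64.0 FPKM with control siRNA against 30.1 and 38.6 FPKM with GR siRNA (differences −1.26 and −0.72). Ccl5, a T cell chemokine, was 4.69 and 3.83 against 6.35 and 7.96 FPKM (0.37 and 0.89). Cxcl10, an interferon-induced chemokine, was 6.94 and 6.02 against 3.66 and 4.76 FPKM, so the chemokines differed in opposite directions. Apol9a, Ifi203 and Ifi204 had differences with DEX of 0.69, 0.65 and 0.62, and each shares over 20% of its 31-mers with related genes (20.2%, 21.9% and 34.6%).

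Receptor and kinase genes outside the 44 differed modestly. Jak2, a kinase of the interferon gamma receptor, was 11.2 and 11.1 FPKM with control siRNA against 8.60 and 8.92 FPKM with GR siRNA. Il10rb, a chain shared by interferon lambda and interleukin 10 receptors, was 33.0 and 32.0 against 37.0 and 40.7 FPKM. Jak1 lay between 46.4 and 48.6 FPKM, Tyk2 between 9.08 and 9.49 FPKM, Ifngr1 between 20.0 and 22.0 FPKM and Ifngr2 between 30.6 and 34.2 FPKM, while Ifnlr1 was at or near 0. With DEX in control siRNA cells, 66 of 86 further pathway genes were lower (76.7%), beside 52.6% of all genes. These were 46 of 56 target genes (82.1%), 8 of 10 sensing genes, 4 of 6 receptors and kinases (66.7%), 4 of 7 regulators (57.1%), 3 of 6 transcription factors and the ligand gene Ifne. In GR siRNA cells 37 of the 86 were lower (43.0%), beside 51.9% of all genes, and 23 of 56 target genes (41.1%). None of the 86 was past 1.5-fold with DEX in either arm. Of all genes, 0.686% were higher and 0.392% lower in control siRNA cells, and 0.531% higher and 0.645% lower in GR siRNA cells. With shares this small, a count of 0 says little about these genes.

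Members with a match to the ISRE core searched were near those without in median and direction. This split rests on exact letters: a shorter core, AAANNGAAA, occurs in 23 of the 34 members with promoters (67.6%), beside 12.1% of all genes. Some members counted as without a match therefore hold the shorter core, and the 10 members lacking a promoter are in neither group. Whether an ISRE sets members apart was not tested. Without DEX, the 18 with a match had a median GR siRNA difference of −0.076 and 11 of them were lower, and the 16 without had −0.095 with 12 lower. With DEX in control siRNA cells, 15 of 17 measured members with a match and 15 of 16 without were lower. Ifit1 and Rsad2, with the promoters printed above, both hold matches, as do Stat2 and Ifitm3, which were higher.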

How the data were processed

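RNA-seq values were analysed for 4 samples, 1 per condition. Per the submitters' processing notes, the authors used TopHat2, Cuffdiff and mm10, with no roles stated. No source used here gives tool versions, annotation or strand setting. The deposited unit is FPKM, which keeps no counts. Columns were matched to samples by name; no source used here says whether a column is 1 replicate, a mean or a merged library.

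Differences of log2(FPKM + 1) were taken where either column reached 1 FPKM, and counted at 1.5-fold and at a log2 size of 0.32 beside all genes (Python 3.11.15, pandas 2.3.3). With 1 column per condition the planned limma test was not used. Gene coordinates and shared 31-mers (both strands) come from GENCODE M21, and promoters from RefSeq. The 44 members, further lists and rules were chosen with earlier results of these data known. All members were named, and of other pathway genes the ligands, receptors, kinases and those past 1.5-fold. A further gene covered by this rule is not reported here. Only the steps that take and count differences were tested on simulated data, with changes larger than those of the members. Alternatives were pseudocounts, filters, scaling, folds and removal of 10 sequence-sharing members.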

Additional observations from a re-analysis of the deposited data

Results flagged for a closer look

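Ifit2 and Cmpk2 had DEX differences of opposite sign in the siRNA arms that were more than 0.32 apart in log2. Ifit2 was 13.8 FPKM without and 12.3 FPKM with DEX in control siRNA cells, and 13.1 and 15.4 FPKM in GR siRNA cells, so the DEX difference was 0.37 higher in GR siRNA cells. Cmpk2 was 7.48 and 6.71 FPKM in control siRNA cells and 4.68 and 5.56 FPKM in GR siRNA cells, which is 0.35 higher. Each arm has 1 column per DEX state, and the difference was not tested.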

How the results depend on the processing

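No paired analysis was possible because the table has 1 column per condition, and for the same reason no replicate was left out. Upper quartile rescaling moved the median member difference of GR siRNA from −0.09 to −0.03 without DEX and from 0.00 to 0.03 with DEX, and that of DEX from −0.06 to −0.04 in control siRNA cells and from 0.015 to 0.002 in GR siRNA cells. No member past 1.5-fold changed sign. The share of members lower with DEX in control siRNA cells was 84.1% to 93.8% over the alternatives, which for this share were added after seeing the data. The share of all genes was 35.3% to 52.9% over the same alternatives, lowest without the filter on low values. Without DEX, the GR siRNA counts were 5 lower and 1 higher with a pseudocount of 0.1 (11.6% and 2.33% of members, beside 3.31% and 3.6% of all genes) and also with 0.01 (beside 3.45% and 3.76%). Past a log2 size of 0.32 they were 8 of 43 lower and 1 of 43 higher, beside 8.86% and 7.7% of all genes. At 2-fold 1 of 43 was lower, beside 81 of 11325 genes. Without the 10 sequence-sharing members, Ifit1 among them, 1 of 33 was at least 1.5-fold lower, beside 2.54% of all genes. With DEX, 0 of 37 members were higher at the 5 FPKM filter, beside 180 of the genes that passed it. Past 0.32, 2 of 43 were higher, beside 7.78% of all genes. At 2-fold 0 were higher and 0 lower, beside 65 and 88 of 11344 genes. Without sequence-sharing members 1 of 33 was lower, beside 2.62% of all genes. For DEX in control siRNA cells, 1 of 42 was lower past 0.32, beside 0.882% of all genes. With pseudocounts of 0.1 and 0.01 the Oas2 difference with DEX was 0.98 and 1.04, larger in size than that of Rsad2 (−0.83 at both). The directions of gene families under rescaling were added after seeing the data. Depth limits Oas2, Oas3, Mx1, Gbp2 and Iigp1, the members of lowest level.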

Other observations

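The genes named here were chosen after their values were seen. Ifit3b and Ifit1bl1 are relatives of Ifit3 and Ifit1 outside the 44. Ifit3b, listed as I830012O16Rik, was 6.99 and 6.03 FPKM with control siRNA, without and with DEX, and 4.58 and 5.43 FPKM with GR siRNA. Ifit1bl1, listed as Gm14446, was 1.19 and 1.08 against 0.50 and 0.79 FPKM. Both were lower in the GR siRNA columns. Ifit1bl1 reached 1 FPKM only in the control siRNA columns, so its direction followed from the filter. Ifit3 shares 61.8% of its 31-mers with Ifit3b, so the values of that pair are not separate readings. Tmem173, which encodes the DNA-sensing adaptor STING, was 17.8 and 17.1 against 25.1 and 25.2 FPKM, a difference of 0.48 without and 0.54 with DEX that was just short of 1.5-fold.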
